A study of Homo sapiens with 38 samples.

Results

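The genes described here build the ribosome: subunits and factors of RNA polymerase I, which makes the precursor of ribosomal RNA, and the nucleolar proteins that modify, cut and fold that precursor. They were taken from a list of 39 named genes, matched by current or former symbol to the probe sets of the array, with the probe set of the highest mean signal standing for each gene. Of the 39 members, 34 had a probe set annotated to 1 gene symbol, and all 34 passed the filter on dim probe sets, among 11450 genes tested in all. The other 5 (NOP56, DKC1, BOP1, PPAN and GNL3) had only probe sets annotated to several symbols and are not measured here. By role, the measured members were 2 of 3 box C/D ribonucleoprotein genes, 3 of 4 box H/ACA genes, 4 of 4 nucleolar organisers and chaperones, 11 of 11 genes of small-subunit processing and maturation, 8 of 11 of large-subunit maturation, and 6 of 6 of RNA polymerase I and its factors.

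Expression was measured on 38 Affymetrix arrays, each a separately labelled sample, in HT-1080 (a fibrosarcoma line), HT-29 (a colorectal adenocarcinoma line) and a rho0 derivative of each, which is deficient in mitochondrial DNA and so lacks a working respiratory chain. The study asked how mitochondria bear on the response of tumour cells to stress of the endoplasmic reticulum and to lack of glucose. The stresses were 2-deoxyglucose (2DG, a glucose analogue that blocks glycolysis), glucose starvation (GS) and tunicamycin (TM, an inhibitor of N-glycosylation), whose doses are not given in the sources used here for 2DG and TM. The added compounds were 3 biguanides, which were 10 mM metformin (Met), 300 µM buformin (Bu) and 100 µM phenformin (Phen), and also rotenone (Rot, 100 nM), antimycin A (AA, 10 ng/ml) and versipelostatin (VST, 3 µM). Rotenone and the biguanides inhibit complex I of the respiratory chain and antimycin A inhibits complex III.

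Untreated controls numbered 12, with 6 arrays from parental HT-1080 and 2 from its rho0 derivative, and 3 from parental HT-29 and 1 from its derivative. HT-1080 had 3 arrays of 2DG, 2 of GS and 1 of TM. It had 1 array each of 2DG with Met, Bu, Phen, Rot, AA or VST, of GS with Rot, AA or VST, of TM with Rot or AA, and a further array of GS with Rot. HT-1080 rho0 had 1 array each of 2DG, GS and TM. HT-29 had 3 arrays of GS and 1 of GS with VST, and HT-29 rho0 had 1 of GS. Exposure was 18 h, except 14 h for HT-29 rho0 under GS and for its parental partner (HT-29 GS replicate 3), since the rho0 cells were badly damaged by the longer time. A suffix S marks RNA that also holds floating cells (1 array of GS with Rot, GS with AA, and HT-1080 rho0 under GS). The labels do not say whether the arrays of GS with Rot, with and without floating cells, come from 1 culture. Each rho0 line is 1 derivative of its parent, and whether it is a clone is not given in the sources used here. Each of the 26 treated arrays has 1 control array assigned to it in its description, and several treated arrays share 1 control.

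Values are MAS5 signals scaled to the same trimmed mean on each array, and changes are log2 differences from an array's own control. "Rose" and "fell" are used only for members past a Benjamini-Hochberg adjusted p of 0.05 over all 11450 genes in a limma fit with the described control as a block. Counts at an unadjusted p are given for members only, with no share of all genes at that threshold to set beside them. The labels do not say whether arrays of 1 group come from separate cultures, so a p-value here reflects only how these samples spread, which may be technical, and precision is limited by how many arrays there are. Of the 21 treatments, 18 had 1 array, which was assumed to vary like the replicated groups. A lower signal cannot tell fewer cells of a kind from less RNA per cell. The trimmed mean of the deposited signals was 122 to 136 on parental controls and on parental arrays of 2DG, GS or TM alone. All arrays that combined a compound with 2DG or GS, and the rho0 arrays under 2DG or GS, lay lower, between 89.5 and 102. Line identity held for most markers: 6 of 8 mesenchymal genes (not THY1 and FN1) and 5 of 8 colon epithelial genes (not KRT20, CDX1 and MUC13) separated the 29 HT-1080 from the 9 HT-29 arrays with no overlap.

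As background, ribosome assembly starts in the nucleolus, where RNA polymerase I transcribes the ribosomal DNA with the help of UBTF, of the SL1 complex that contains TAF1A, and of RRN3, which links the polymerase to SL1. Small nucleolar ribonucleoproteins then methylate the transcript (fibrillarin, FBL) or convert uridine to pseudouridine (the box H/ACA group), while a large processome shapes the small subunit and a separate set of factors matures the large subunit. The pathway uses much of the energy of a growing cell, and many of its genes are known targets of the growth regulator MYC, which binds the E-box CACGTG.

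Promoters are shown here because several members changed together and the windows show sequence features that the list did not use. Among the 32 members with a promoter in the RefSeq table (GRCh38.p14, 250 bases before to 50 after the start), 11 or 34.4% held the E-box CACGTG, against 7.43% of 27305 promoters of the same length. The ETS-type word CCGGAAG, searched on both strands, was in 10 or 31.2% of them, against 10.7% of all promoters. CACGTG is its own reverse complement, and the words do not overlap each other. Of the 12 members that rose with inhibitors and 2DG, 5 held the E-box, as did 3 of the 7 with a promoter among those that fell in starved HT-29, and 5 of 12 in neither group, with MRTO4 and NOP10 in both of the first groups. Below are windows of 180 bases before to 20 after the start, with both words, on either strand, in capitals. MRTO4 (chr1:19251625-19251824, plus strand) had the largest called fall under stress alone among members with an E-box. NOP10 (chr15:34343117-34343316, minus strand), with 2 E-boxes and an ETS word read on the other strand between them, RRP9 (chr3:51941885-51942084, minus strand) and POLR1C (chr6:43516909-43517108, plus strand) were chosen after their values were seen. In POLR1C the ETS word is read on both strands, in 2 overlapping copies.
MRTO4: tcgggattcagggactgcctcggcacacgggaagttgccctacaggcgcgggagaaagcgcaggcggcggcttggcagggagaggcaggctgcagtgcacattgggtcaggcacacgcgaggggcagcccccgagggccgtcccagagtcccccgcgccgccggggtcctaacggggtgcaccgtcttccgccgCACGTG
NOP10: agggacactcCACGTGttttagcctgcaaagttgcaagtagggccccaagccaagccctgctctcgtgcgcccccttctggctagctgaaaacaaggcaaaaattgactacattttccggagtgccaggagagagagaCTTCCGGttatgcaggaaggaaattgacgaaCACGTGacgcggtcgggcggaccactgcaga
RRP9: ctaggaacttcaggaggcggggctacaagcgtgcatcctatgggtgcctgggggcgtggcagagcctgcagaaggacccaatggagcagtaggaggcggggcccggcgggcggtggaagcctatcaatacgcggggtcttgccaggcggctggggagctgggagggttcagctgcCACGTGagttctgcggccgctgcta
POLR1C: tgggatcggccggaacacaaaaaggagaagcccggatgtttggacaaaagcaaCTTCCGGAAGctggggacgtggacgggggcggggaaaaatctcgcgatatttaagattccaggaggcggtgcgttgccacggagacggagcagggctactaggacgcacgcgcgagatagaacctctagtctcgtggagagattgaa

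Across the 26 treated arrays the members did not move as a block. The median change over the 34 members lay between -0.46 (HT-29 GS replicate 1) and 0.36 (starved HT-29 rho0), and it was above 0.20 only on that rho0 array and on the arrays of 2DG with Met, Bu, Phen, Rot and AA. It was below -0.20 on HT-29 GS replicate 1, HT-29 GS with VST, HT-1080 TM with AA and HT-1080 rho0 under TM. Genes of similar signal, which are 2849 non-members with a mean log2 level between 8.32 and 10.48, had medians between -0.15 and 0.07 on the same arrays. Those limits are the quartiles of the members' own levels, so some members lie above or below them. By the count of comparisons in which a member was called, 9 members were called in none of the 13 comparisons, 8 in 1, 10 in 2, and 7 in 3 or more.

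**Figure D1:**
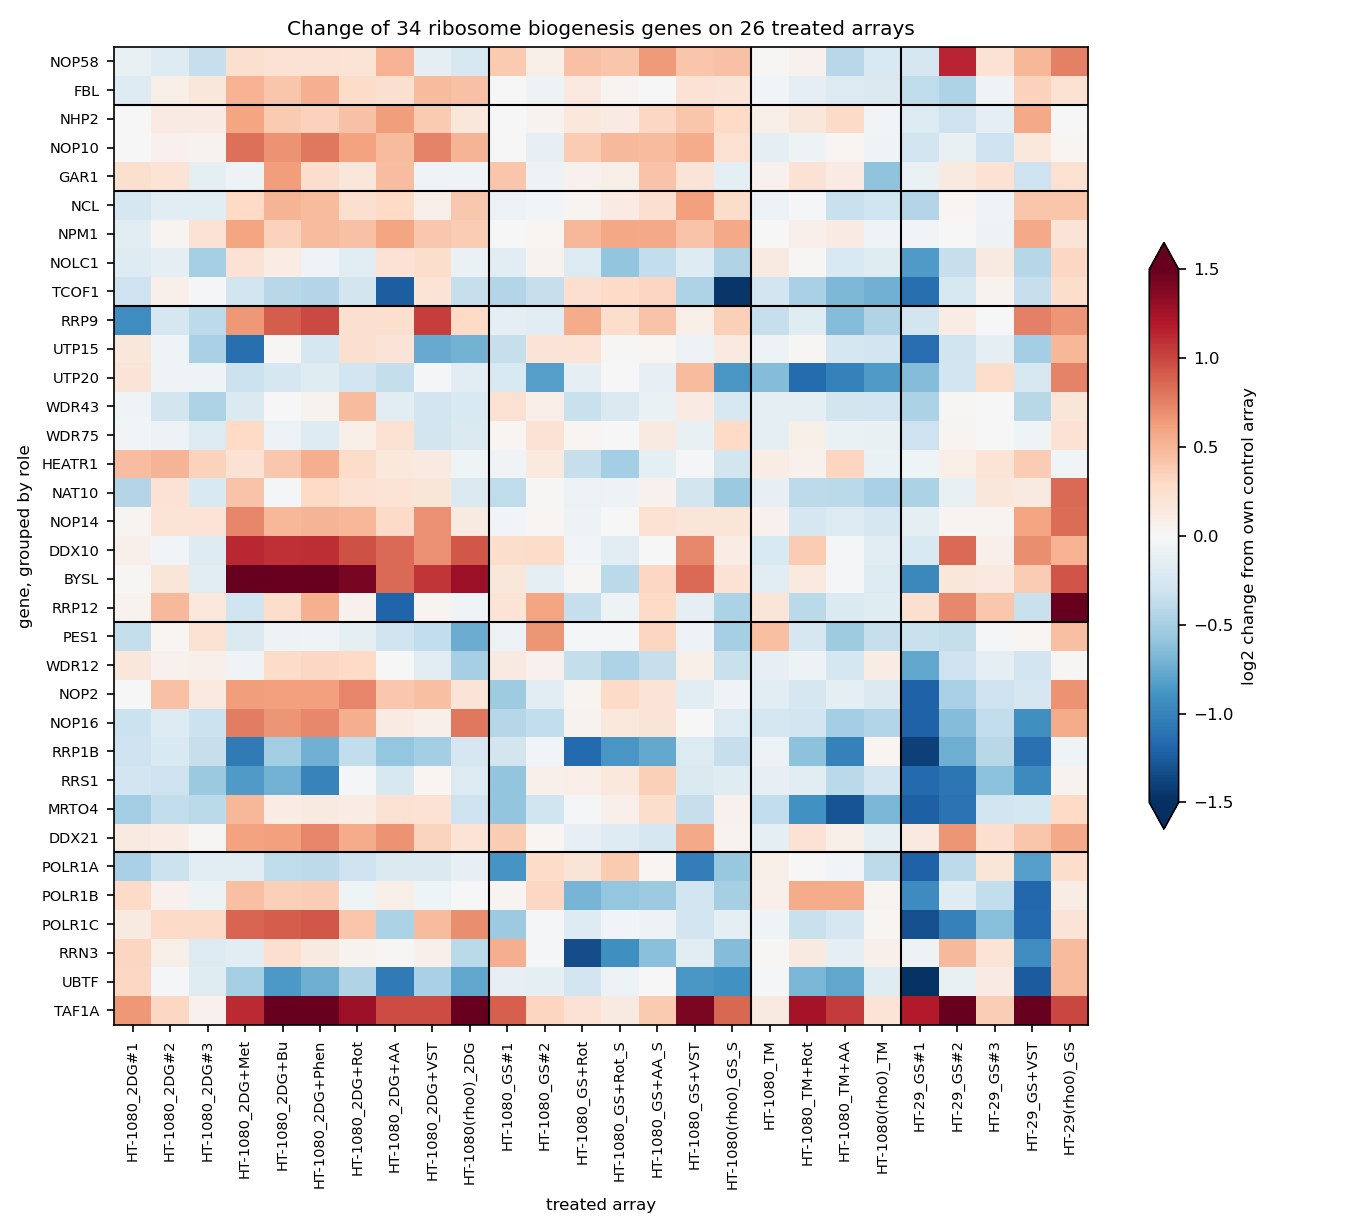
Colour gives the log2 change of each of the 34 measured members (rows, grouped by role) on each of 26 treated arrays (columns) from the control array its description names, with the scale ending at 1.5 in either direction. TAF1A is higher on every array, BYSL and DDX10 are high in the columns of 2DG with a compound, and the lower rows are low in HT-29 GS replicate 1.

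**Figure D2:**
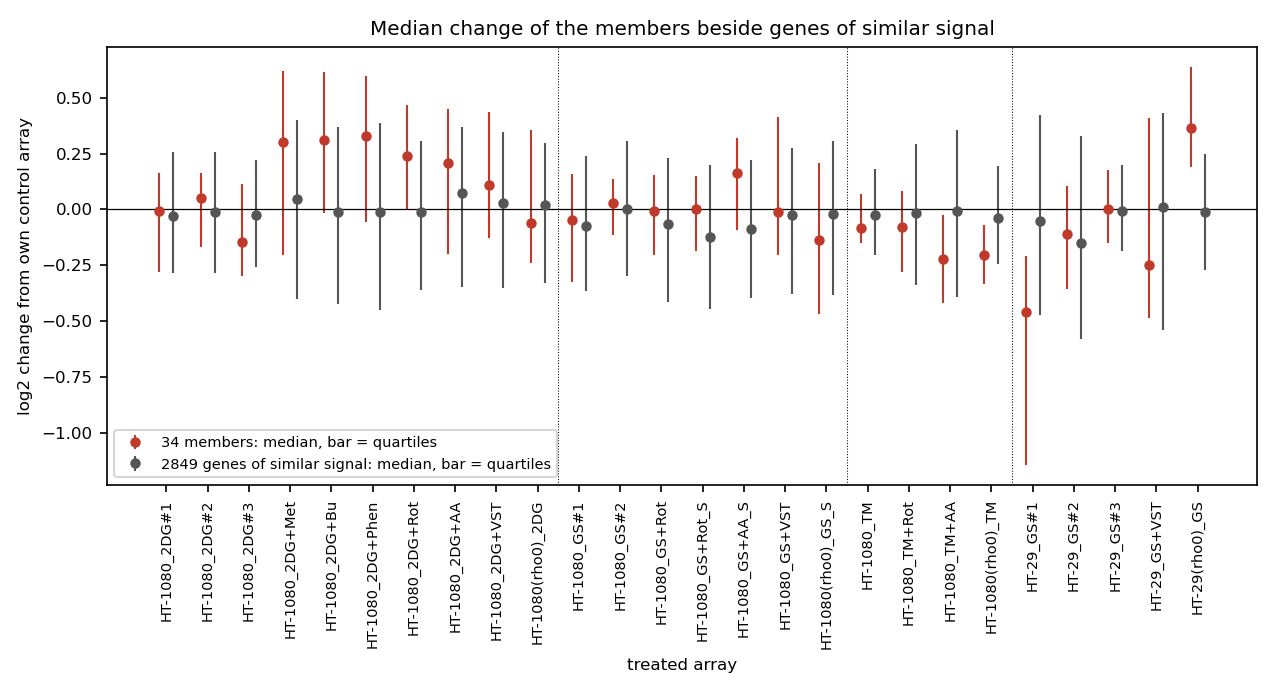
Points are the median log2 change from the own control on each of 26 treated arrays, for the 34 members (red) and for 2849 non-members of similar signal (grey), and bars run from the lower to the upper quartile of genes. The red point is at -0.46 for HT-29 GS replicate 1, and for the starved HT-29 rho0 array it is at 0.36, while the grey medians stay between -0.15 and 0.07.

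Some members kept 1 direction on nearly all arrays. TAF1A, a subunit of the promoter selectivity complex SL1, was higher than its own control on 26 of 26 arrays, by 0.07 (2DG replicate 3) to 2.40 (HT-29 GS replicate 2), with a median of 0.98. RRP1B, a nucleolar protein of large-subunit assembly, was lower on 25 of 26, from -1.40 to 0.03. UBTF, the architectural factor of active ribosomal DNA, was lower on 23 of 26, from -1.49 to 0.47, and UTP20, a scaffold of the small-subunit processome, was lower on 22. The helicase DDX21 was higher on 21 and the nucleolar chaperone NPM1 on 20. These counts are descriptions without a test, since the arrays share controls. The members named were picked by these counts, and how many of all genes kept 1 direction as often was not counted. The UBTF count rests on 1 of its 4 probe sets past the filter. With inhibitors and GS against GS the others gave 0.57, 0.52 and 0.76, where the one used gave 0.09, and none of them passed.

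2DG alone left the members near their controls. Of 34 members 1 rose, 2.94% against 4.9% of all genes, and 0 fell against 3.37%, with a median change of 0.01 for the members and 0.02 for all genes. By unadjusted p under 0.05 in limma, 1 was higher and 3 were lower. The member that rose was HEATR1, a scaffold of the processome that is also needed for transcription by polymerase I. Its scaled signal was 1318, 1128 and 1155 on the 3 arrays of 2DG and 953, 787 and 910 on their controls. All 3 arrays were thus higher than every HT-1080 control, the highest of which reached 956. The rise was 0.44 (SE 0.110, n = 3, limma adjusted p = 0.0325), and its other probe sets gave 0.42, which passed, and 0.18 and 0.22, which did not. No member was called when any 1 of the 3 arrays or their controls was left out. The control of replicate 2 (control 4) was itself the lowest of 6 for HEATR1.

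Values that did not pass in the same comparison were lower for several members, of which 3 assembly factors are given here. RRP9, the U3-specific protein of the box C/D particle, was at -0.93, -0.25 and -0.39 on the 3 arrays of 2DG, with a fitted change of -0.52 (limma adjusted p = 0.0711). MRTO4, a relative of the stalk protein P0 that acts in large-subunit assembly, was at -0.53, -0.37 and -0.41 (fitted -0.43, limma adjusted p = 0.125). RRS1, which helps to bring the 5S particle into the large subunit, was at -0.29, -0.31 and -0.55 (fitted -0.38, limma adjusted p = 0.143). All 3 genes were thus below their own control on all 3 arrays. So were NCL, NOP58, NOP16 and RRP1B, while TAF1A and DDX21 were above theirs on all 3. How many of all genes kept the same direction on all 3 was not counted.

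GS alone in HT-1080 gave no call among the members. The counts were 0 higher and 0 lower of 34, against 4.36% and 5.1% of all genes, with 1 higher and 2 lower at an unadjusted limma p under 0.05, and the member median was -0.03. The fitted changes ran from -0.53 (UTP20) to 0.61 (TAF1A). The 2 arrays differed for several members. POLR1A, the largest polymerase I subunit, was at -0.88 on replicate 1 and 0.27 on replicate 2, and RRS1 at -0.59 and 0.07. The array of TM alone in HT-1080, which has no replicate, had a member median of -0.08, with values between -0.65 (UTP20) and 0.45 (PES1, of the complex that processes large-subunit RNA).

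In HT-29 under GS, most of the large-subunit genes fell. Of 34 members 9 fell (26.5%, against 15.5% of all genes) and 3 rose (8.82%, against 11.7%). Genes of similar signal fell in 21.4% and rose in 17%, so that the share that fell is closer to that of its signal class than to that of all genes. The median change was -0.22 for the members, -0.07 for genes of similar signal and -0.04 for all genes. Of the 8 large-subunit genes 6 fell and 1 rose, with a median of -0.71, and of the 6 polymerase I genes 2 fell and 1 rose. Of the 11 small-subunit genes 1 rose and 0 fell, with a median of -0.09, and UTP15 alone was lower on all 3 arrays.

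POLR1C, a subunit shared by polymerases I and III, had a scaled signal of 213, 252 and 331 on the 3 arrays of GS and 538, 512 and 520 on their controls. The ranges did not overlap, and the 14 h array (replicate 3) lay nearest to the controls. The fall was 0.99 on the log2 scale (fitted change -0.99, SE 0.157, n = 3, limma adjusted p = 0.00183), and the other POLR1C probe set gave -0.85. RRS1 was at 541, 439 and 765 against controls of 1218, 941 and 1173. The fitted change was -0.95 (SE 0.153, limma adjusted p = 0.00193), again with no overlap. MRTO4 was at 614, 544 and 1047 against 1438, 1174 and 1281, a change of -0.87 (SE 0.165, limma adjusted p = 0.00402), and its other probe set gave -0.93.

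RRP1B was at 391, 482 and 663 against controls of 1042, 806 and 885, a change of -0.85 (SE 0.165, limma adjusted p = 0.00450). NOP16, a nucleolar protein of the large-subunit precursor, was at 749.7, 753 and 1164 against 1751, 1181 and 1505, a change of -0.74 (SE 0.139, limma adjusted p = 0.00391). NOP2, which methylates the RNA of the large subunit, was at 398, 408 and 719 against 933, 573 and 894, a change of -0.67 (SE 0.173, limma adjusted p = 0.0156). For NOP2 the 14 h array was above the lowest control, so the ranges overlap, though each array was below its own control, and for NOP16 and RRP1B they do not overlap. POLR1B, a catalytic subunit of the polymerase, fell by 0.50 on the log2 scale, WDR12, of the same processing complex as PES1, by 0.41, and NOP10, a core protein of the box H/ACA particle, by 0.24.

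TAF1A rose most. Its signal was 389, 589.7 and 205 on the arrays of GS against 167, 107 and 158, and the rise was 1.32 (SE 0.294, n = 3, limma adjusted p = 0.00813). RRP12, an export factor of both subunits, rose by 0.45 (SE 0.148, limma adjusted p = 0.0405) and DDX21 by 0.36 (SE 0.107, limma adjusted p = 0.0300). RRP12 lost its call under 5 of 9 alternative settings and DDX21 under 3 of 9.

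**Figure D3:**
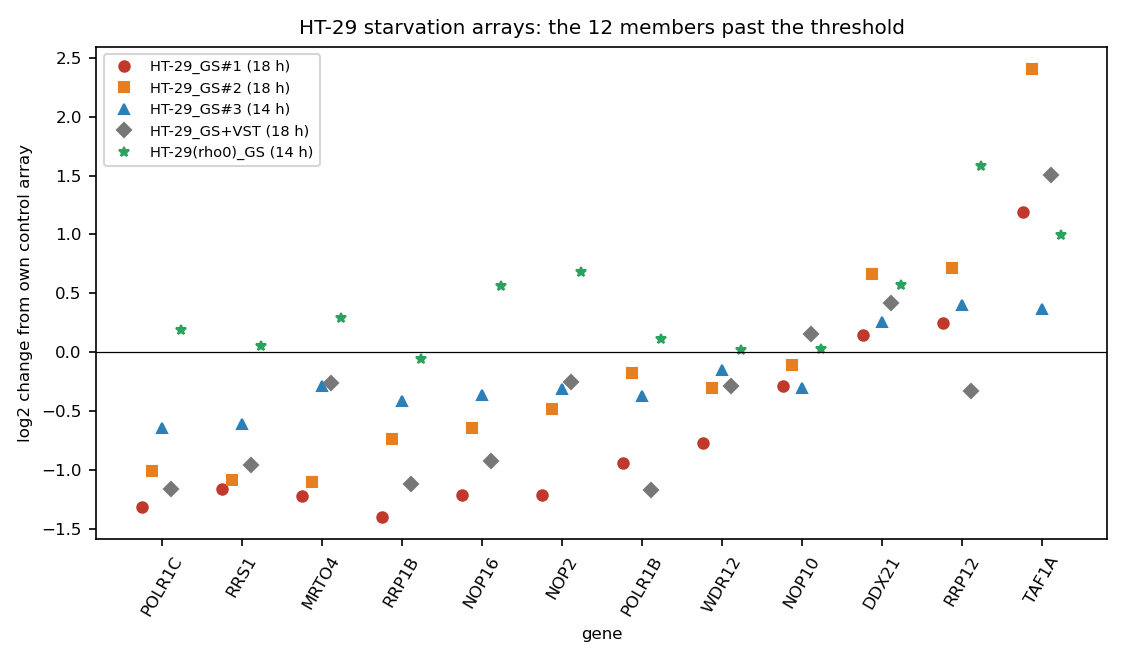
Each symbol is 1 array of starved HT-29 cells and gives the log2 change from its own control for the 12 members past the threshold in the fit of the 3 GS arrays. The 14 h array lies nearer to 0 than the 18 h arrays for most genes, and HT-29 rho0 at 14 h lies at or above 0 for all but RRP1B.

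The size of the fall differed between the 3 arrays. The median over 34 members was -0.46 on replicate 1, where 31 members were lower and 10 were at least 2-fold lower (10.5% of all genes were). It was -0.11 on replicate 2 and 0.00 on replicate 3 at 14 h. Leaving out the 14 h array gave 18 called members in place of 12, and leaving out replicate 2 or its control gave 7, all of which fell. Without replicate 1 or its control 3 rose and 5 fell, and the member median was -0.03 in place of -0.22. The array of GS with VST at 18 h had a member median of -0.25, with POLR1C at -1.17, POLR1B at -1.18, RRP1B at -1.12, RRS1 at -0.96 and NOP16 at -0.92, but MRTO4 and NOP2 at -0.26. It shares control 1 with replicate 1 and has no replicate. No test was made for it.

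Measured from its own control, HT-29 rho0 under GS for 14 h went the other way. Of 34 members 31 were above their own control, the median was 0.36, and the quartiles were 0.19 and 0.64, while genes of similar signal had a median of -0.01. RRP12 was at 1.58, TAF1A at 1.00, BYSL at 0.94 and NOP2 at 0.68. The 3 members below their control were RRP1B (-0.06), HEATR1 (-0.04) and NHP2, which lay just under it. Its parental partner at the same time had 18 members higher and 16 lower. This is 1 treated and 1 control array, the control's values are rounded more coarsely than on any other array but HT-29 GS replicate 2, and the difference was not tested. The share of all genes above their control was not counted. For some members the rho0 control was itself below every parental control. MRTO4 was at 476 on it and 585 after GS, against 1174 to 1438 and 544 to 1047 in the parental line. NOP2 was at 506 and 813, against 573 to 933 and 398 to 719. TAF1A was at 152 on the rho0 control, within the parental 107 to 167.

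Starvation was compared between lines by the test of the difference itself. No member passed for GS in HT-1080 less GS in HT-29, 0 of 34 in either direction against 0.166% and 0.402% of all genes, with 5 higher and 0 lower at an unadjusted limma p under 0.05. The share of all genes at the unadjusted threshold was not counted. TAF1A was at -0.71 and missed the threshold even unadjusted. The largest positive differences were 0.71 for POLR1C (SE 0.247, limma adjusted p = 0.241), 0.70 for RRS1 (SE 0.242, limma adjusted p = 0.235) and 0.69 for RRP1B (SE 0.261, limma adjusted p = 0.273). Leaving out the 14 h array or its control gave 4 calls, all higher in HT-1080.

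Adding a respiratory inhibitor to 2DG gave the most rises among the members. Over Met, Bu, Phen, Rot and AA together, 12 of 34 members rose compared with 2DG alone (35.3%, against 12.9% of all genes) and 1 fell (2.94%, against 22.1%). Each compound is 1 array, so the SE and p of this comparison take in spread between compounds and doses, and not between repeats of 1 compound. Control 3, shared by Met, Bu and Phen, has no array of 2DG alone. The median was 0.27 for the members, 0.02 for genes of similar signal, of which 19.8% rose and 20.1% fell, and -0.12 for all genes. That signal class does not match all members. Of the 34, 9 lay above its levels and 7 of these rose, as did 55.5% of the 902 other genes there. The 12 members that rose were BYSL, DDX10, TAF1A, RRP9, NOP16, MRTO4, NOP10, DDX21, NCL, NPM1, NHP2 and FBL, and the one that fell was UBTF. By role, 3 of 11 small-subunit genes, 3 of 8 large-subunit genes, 2 of 3 box H/ACA genes, 2 of 4 organisers and chaperones, 1 of 2 box C/D genes and 1 of 6 polymerase I genes rose.

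BYSL, needed for the last steps of the small subunit, had a scaled signal of 351.1, 526 and 467 with 2DG alone, against controls of 346, 464 and 528. It was 1308 with Met, 1193 with Bu and 1326 with Phen against a control of 355, and 1253 with Rot and 837 with AA against 464. All 5 inhibitor arrays were above all 3 arrays of 2DG alone and above every control. The difference was 1.30 (SE 0.264, 5 arrays against 3, limma adjusted p = 0.00100). DDX10, a helicase of the processome, was at 432, 435 and 391 with 2DG alone, at 944, 926 and 932 with Met, Bu and Phen, and at 872 and 807 with Rot and AA, where its 6 HT-1080 controls ranged from 409 to 460.4. The groups did not overlap, and the difference was 1.02 (SE 0.186, limma adjusted p = 0.000423).

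RRP9 was at 109, 179 and 127 with 2DG alone and at 222, 267, 281, 253 and 252 with Met, Bu, Phen, Rot and AA. The difference was 0.88 (SE 0.216, limma adjusted p = 0.00424), of which part is its lower level under 2DG alone. NOP16 was at 1425, 1366 and 1256 with 2DG alone and at 2615, 2422, 2540.2, 2303 and 1722 with the inhibitors, a difference of 0.72 (SE 0.164, limma adjusted p = 0.00238), and its other probe set gave 0.86. TAF1A was at 311, 229 and 216 with 2DG alone and at 491, 839, 834, 454 and 367 with the inhibitors, a difference of 0.96 (SE 0.321, limma adjusted p = 0.0258). For all 3 genes the inhibitor arrays lay above the arrays of 2DG alone.

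MRTO4 was at 686, 626 and 586 with 2DG alone and at 1197, 912, 929.8, 876 and 952 with the inhibitors, against controls of 780 to 990. The difference was 0.61 (SE 0.186, limma adjusted p = 0.0161), but the other probe set gave -0.05. UBTF was at 154, 191 and 186 with 2DG alone and at 119, 91.5, 100.4, 139.9 and 89.4 with the inhibitors, a difference of -0.76 (SE 0.276, limma adjusted p = 0.0392), while its other probe sets gave -0.50, -0.41 and -0.03 and did not pass. NOLC1, a chaperone of the box particles, did not pass on the probe set used (0.28), whereas its 2 other probe sets gave 0.88 and 0.93 and did. POLR1B likewise was at 0.05 on the probe set used and at -1.33 and -0.86 on 2 of its other probe sets, which passed.

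**Figure D4:**
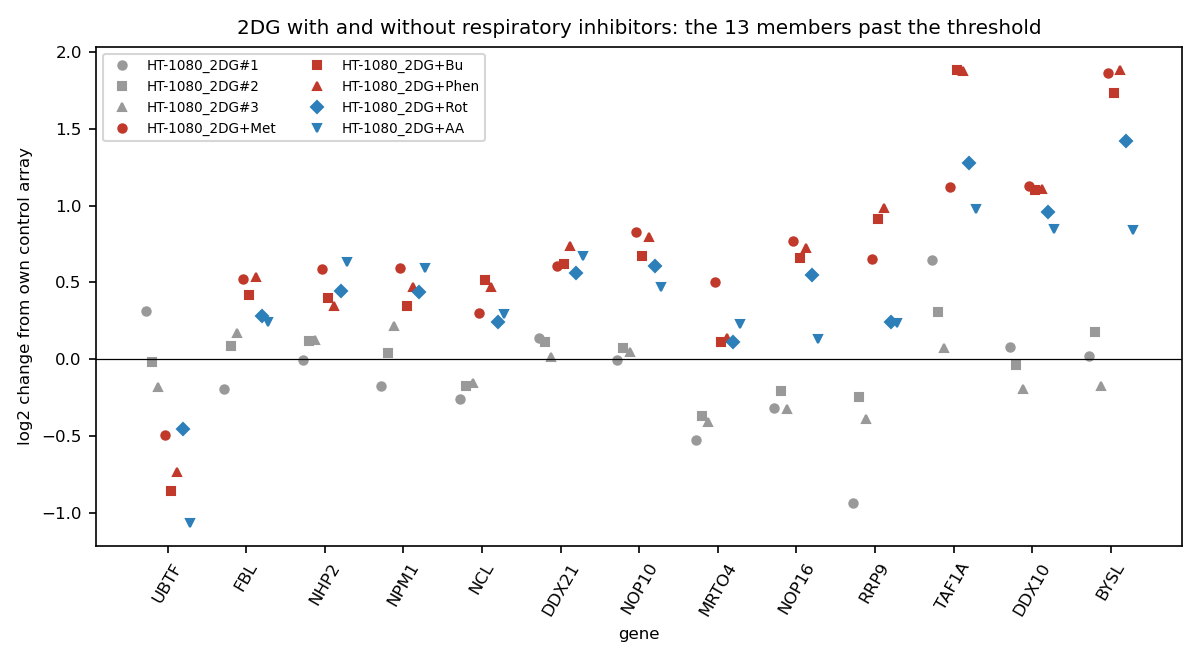
Symbols give the log2 change from the own control for the 13 members past the threshold, with the 3 arrays of 2DG alone in grey, those with a biguanide in red and those with Rot or AA in blue. For BYSL, DDX10, RRP9 and NOP16 every coloured symbol lies above every grey one, and for UBTF every coloured symbol lies below.

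The remaining 6 rises were small and were found in genes with high signal. NOP10 rose by 0.57, DDX21 by 0.53, NCL (nucleolin) by 0.51, NPM1 by 0.47, NHP2, which binds the H/ACA RNA, by 0.41 and FBL by 0.30. Of the 9 members with a mean log2 level over 10.48, 7 rose, with a median of 0.51. Among the 902 other genes above that level 55.5% rose, with a median of 0.39, and of 43 cytosolic ribosomal protein genes measured 42 rose, with a median of 0.47. The scaling of the arrays moves these calls. On the deposited scale, where the median of all genes shifted from -0.12 to -0.48, 2 members rose and 7 fell, and with quantile normalization 8 rose and 0 fell. BYSL and DDX10 passed, as rises, under each of the 11 processing alternatives, and RRP9 and NOP16 under 10 of 11, all but the deposited scale.

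**Figure D5:**
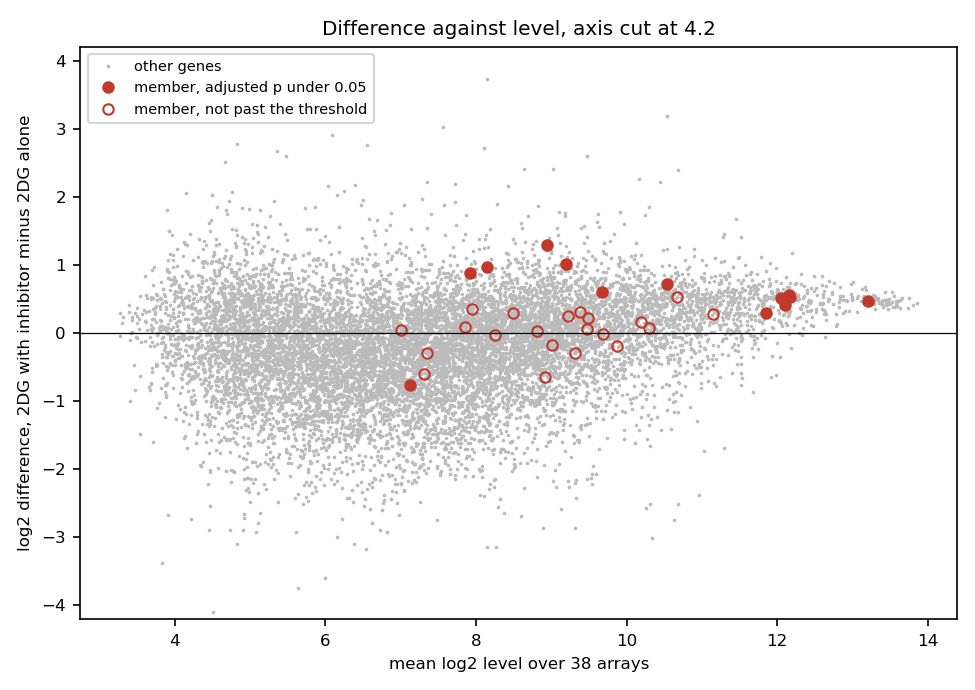
The x axis is the mean log2 level of a gene over 38 arrays and the y axis the log2 difference between 2DG with an inhibitor and 2DG alone, for 11450 genes, of which 1 lies outside the plotted range. Members are circles, filled where the limma adjusted p is under 0.05, and the filled circles on the right lie among other high-signal genes, whose median difference was 0.39.

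The inhibitors were given at different doses, so their values are set side by side without a comparison. RRS1 was at -0.85, -0.71 and -1.0 on the arrays of 2DG with Met, Bu and Phen, at -0.01 with Rot, -0.24 with AA and 0.03 with VST. POLR1C was at 0.88, 0.91 and 0.94 with the 3 biguanides, 0.42 with Rot, -0.48 with AA and 0.47 with VST. BYSL was at 1.86, 1.73 and 1.88 with the biguanides, 1.42 with Rot, 0.84 with AA and 1.07 with VST. TCOF1, the treacle protein that brings polymerase I to the nucleolus, was at -1.24 with AA and between -0.44 and -0.28 with the other 4 inhibitors. Met, Bu, Phen and VST share control 3, and Rot and AA share control 4 with 2DG replicate 2.

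With TM in place of 2DG, the same kind of inhibitor gave no call, in a comparison with only 1 array of TM alone. In simulated data that comparison recovered 38% of changes of 1 on the log2 scale, against 64% for inhibitors with 2DG. For TM with Rot and with AA against TM alone, 0 of 34 members passed in either direction, against 0.192% and 0.55% of all genes, with 2 higher and 3 lower at an unadjusted limma p under 0.05. MRTO4 was at -0.37 with TM, -0.90 with TM and Rot and -1.30 with TM and AA, a difference of -0.73 (SE 0.242, limma adjusted p = 0.169). BYSL was at -0.15, 0.14 and -0.03 and DDX10 at -0.22, 0.38 and -0.02 on the same arrays. TAF1A was at 0.13, 1.24 and 1.05 and UBTF at -0.02, -0.69 and -0.78, in the directions of their calls with inhibitors and 2DG. Over the 34 members the differences ran from -0.84 to 1.01.

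Whether inhibitors acted differently under 2DG and TM was tested as a difference of differences. The 2DG side held Met, Bu, Phen, Rot and AA, and the TM side only Rot and AA. The difference thus also takes in the choice of compounds. MRTO4 passed, 1 of 34 members (2.94%, against 1.91% of all genes higher and 3.21% lower), at 1.34 (SE 0.305, limma adjusted p = 0.0217). Its other probe set gave 0.58 and did not pass. At an unadjusted limma p under 0.05, 10 members were higher and 0 lower, and the median was 0.31 for the members, 0.00 for genes of similar signal and 0.31 for the 902 non-members of high signal. How many of all genes passed unadjusted was not counted. The count of calls was 3 without AA under 2DG, 2 without TM and Rot, and 0 without 2DG replicate 2 or without TM and AA.

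Inhibitors under GS gave both rises and falls among the members, and no test set their effect under GS against that under 2DG. For GS with Rot and with AA, both with floating cells, against GS alone in HT-1080, 3 members rose (8.82%, against 12.1% of all genes) and 4 fell (11.8%, against 14.6%). RRN3, the factor that makes polymerase I able to start, had a signal of 419.8 and 242 with GS alone, against controls of 286 and 246. It was 128 with Rot, 158 with AA and 94.2 on the array of GS with Rot without floating cells. All 3 arrays were below every HT-1080 control, the lowest of which was 246, but both arrays with Rot may be 1 culture and only the one with floating cells entered the comparison. The change was -0.89 (SE 0.227, 2 arrays against 2, limma adjusted p = 0.00709). POLR1B was at 988 and 865 with GS alone and at 462, 472 and 427 on the same arrays, a change of -0.81 (SE 0.190, limma adjusted p = 0.00369), and its other probe sets gave -1.41, -0.87 and 0.26. RRN3 and POLR1B passed as falls under each of 10 processing alternatives.

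RRP1B fell by 0.72 on the log2 scale and WDR12 by 0.49, while NOP10 rose by 0.58, NPM1 by 0.56 and NOP16 by 0.56. All 3 that rose are among the 9 high-signal members, and of the 902 other high-signal genes 39.2% rose, as did 40 of 43 ribosomal protein genes. On the deposited scale 0 members rose and 10 fell, with a median of all genes of -0.40. Without GS replicate 2 no member was called, and without GS replicate 1, 6 were. Beside these values, the ACTB 3'/5' ratio, a sign of RNA integrity, was 1.67 and 1.76 on the 2 arrays with floating cells against 1.26 and 1.42 with GS alone, and its part in the result was not tested. BYSL was at -0.40 and 0.31 and DDX10 at -0.16 and -0.01 with Rot and AA. In this comparison the other probe sets of NPM1 gave 0.61 and 0.63 and that of NOP16 0.68, and these passed. The other RRP1B probe set gave -0.21 and those of WDR12 0.23 and 0.07, and these did not. HEATR1 and RRP12 were not called on the probe sets used. Other probe sets passed at -0.53 and -1.06 for HEATR1 and at -1.27, 2.76 and 2.09 for RRP12.

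VST with GS in HT-1080, 1 array, raised 3 members against GS alone (8.82%, against 4.93% of all genes) and lowered 0 (against 8.24%). NCL was at 6419 against 3951 and 3282 with GS alone, a difference of 0.69 (SE 0.160, 1 array against 2, limma adjusted p = 0.00920). NOP10 rose by 0.59 (SE 0.129, limma adjusted p = 0.00648) and NPM1 by 0.43 (SE 0.124, limma adjusted p = 0.0290), and 40 of 43 ribosomal protein genes rose with them, with a median of 0.53. All 3 are among the 9 high-signal members, and 28.4% of the 902 other high-signal genes rose, with a median of 0.35. All 3 calls were lost on the deposited scale, where 0 members rose and 2 fell, and no member was called without GS replicate 1, while 2 were without GS replicate 2.

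Loss of mitochondrial DNA changed few members in untreated HT-1080 cells. The 1 untreated HT-29 rho0 array was not tested against its parent, and some of its levels are given above with starved HT-29 rho0. In the 2 HT-1080 rho0 controls against the 6 parental controls, 0 of 34 rose (against 6.15% of all genes) and 3 fell (8.82%, against 6.95%). WDR75, a processome protein that also acts in polymerase I transcription, fell by 0.63 on the log2 scale (limma adjusted p = 0.0225), with 560 and 511 against 735 to 925. NCL fell by 0.43 (limma adjusted p = 0.0232), with 3050 and 3074 against 3390 to 4390, and NOP10 by 0.40 (limma adjusted p = 0.0144), with 3144 and 3141 against 3690 to 4739. None of the 3 overlapped the parental range. NOP16 was not called on the probe set used (-0.36), while another of its probe sets gave -0.64 and passed. On the deposited scale 10 members fell, where the median of all genes shifted to -0.15, and without either rho0 control none was called.

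Under stress the HT-1080 rho0 arrays were compared with the parental response. For 2DG 1 member passed (2.94%, against 1.77% of all genes higher and 5.25% lower). NOP16 was at 0.79 on the rho0 array and at -0.32, -0.20 and -0.32 on the parental arrays of 2DG, a difference of 1.07 (SE 0.279, limma adjusted p = 0.0409), and its other probe set gave 1.51. Its signal was 1233 on the rho0 control, against 1534 to 1848 on parental controls. Under 2DG it was 2136 in rho0 cells, against 1256 to 1425 in parental ones. BYSL was at 1.28 against 0.02, 0.18 and -0.18, a difference of 1.27 (SE 0.403) that missed the threshold (limma adjusted p = 0.0835), and DDX10 was at 0.93. No member was called when any 1 of the 3 parental arrays or their controls was left out. For GS 0 of 34 passed in either direction, against 0.76% and 0.952% of all genes, with 1 higher and 4 lower at an unadjusted limma p under 0.05. TCOF1 was at -1.46 on the rho0 array and at -0.44 and -0.35 on the parental ones (limma adjusted p = 0.256). Under TM the rho0 array had 28 of 34 members below its control, with a median of -0.21, and the parental array had 22 below, with a median of -0.08.

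The untreated lines differed in both directions. Between 6 HT-1080 and 3 HT-29 controls, 6 members were higher in HT-1080 (17.6%, against 32.4% of all genes) and 7 lower (20.6%, against 27.4%). RRN3 had a mean scaled signal of 282 ± 28.5 (SD, n = 6) in HT-1080 and 624 ± 89.9 (SD, n = 3) in HT-29, a difference of -1.12 (limma adjusted p = 3.07e-06). FBL was at 3037 ± 291 (SD, n = 6) and 5660 ± 258 (SD, n = 3), a difference of -0.90 (limma adjusted p = 5.69e-07). GAR1, of the box H/ACA core, was at 1409.8 ± 269 (SD, n = 6) and 699.96 ± 61.4 (SD, n = 3), a difference of 0.99 (limma adjusted p = 0.000219). RRP9, DDX10, UTP15, MRTO4 and NCL were also lower in HT-1080, and RRP12, POLR1B, WDR75, TAF1A and HEATR1 higher. RRP12 lost this difference (0.14) when all its probe sets were averaged.

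The wider assembly machinery was counted in the same comparisons, from lists of other polymerase I, small-subunit, large-subunit, box-particle and exosome genes, of which 113 of 116 were measured. In starved HT-29, 4 rose and 30 fell (3.54% and 26.5%, against 11.7% and 15.5% of all genes, and 17% and 21.4% of those of similar signal), with a median of -0.24. FTSJ3, a methyltransferase of large-subunit assembly, fell by 1.04 on the log2 scale, IMP3, of the U3 particle, by 1.26, and EXOSC4, of the RNA exosome, by 1.18. With inhibitors and 2DG, 35 rose and 8 fell (31% and 7.08%, against 12.9% and 22.1% of all genes), with a median of 0.25. Genes of similar signal to the members rose in 19.8% and fell in 20.1%, and 55.5% of the 902 high-signal non-members rose. No count on the deposited scale is given for these lists. In the comparison of inhibitors and 2DG the small-subunit assembly factor PNO1 rose by 1.86, BRIX1 by 1.24 and NOL12 by 1.13, while EXOSC6 fell by 2.15. With 2DG alone 2 rose and 4 fell (1.77% and 3.54%, against 4.9% and 3.37% of all genes). With GS in HT-1080 6 rose and 3 fell (5.31% and 2.65%, against 4.36% and 5.1% of all genes). With inhibitors and TM 0 passed, against 0.192% and 0.55% of all genes. Cytosolic ribosomal proteins had 0 calls of 43 in starved HT-29 and under either stress alone in HT-1080.

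Among the members, those that followed the rest most closely over the 26 arrays were NOP2 (Pearson r of 0.85 with the median of the other members), NOP16 (0.84), BYSL (0.79) and MRTO4 (0.77), and the least close were TAF1A (0.15) and HEATR1 (0.17). These values describe arrays that share controls, lines and treatments, and carry no p. Among non-members, the 5 with the pattern most like the median member were PRP4K (r = 0.84, rho = 0.71), PDCD11 (0.84, 0.75), ABCF1 (0.84, 0.77), AKAP8 (0.83, 0.71) and EFTUD2 (0.83, 0.77). The 2 least like it were EML2 (-0.91, -0.84) and OPTN (-0.83, -0.75). Without the 2 arrays farthest from the median (the starved HT-29 rho0 array and the first HT-29 GS replicate), r was between 0.73 and 0.79 for the first 5, -0.87 for EML2 and -0.75 for OPTN.

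MYC, the growth regulator named above, had r = 0.59 and rho = 0.57 with the median member over the same 26 arrays. Its change was 3.18 with inhibitors and 2DG against 2DG (SE 0.292, limma adjusted p = 1.48e-06), 0.05 with 2DG alone (limma adjusted p = 0.888), and -0.62 in starved HT-29 (SE 0.176, limma adjusted p = 0.0236). The rho0 response to 2DG exceeded the parental one by 3.82 (SE 0.351, limma adjusted p = 0.000354), and VST with GS exceeded GS by 1.97 (SE 0.410, limma adjusted p = 0.00492). With inhibitors and GS it was at -0.44 (SE 0.346, limma adjusted p = 0.381). With GS alone in HT-1080, where the member median was -0.03, MYC was at 0.67 (SE 0.215, limma adjusted p = 0.0749). With inhibitors and TM against the 1 array of TM alone, where the member median was -0.08, MYC was at 1.10. Between untreated HT-1080 and HT-29, where members differed both ways, MYC differed by -2.01 (SE 0.154, limma adjusted p = 4.19e-08).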

How the data were processed

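The 38 arrays (Affymetrix U133 Plus 2.0, biotinylated cRNA) were deposited as linear signal intensities, made by the authors with MAS5 per the submitters' processing notes, with scaling target and version not given in the sources used here. Of 54675 probe sets, 232 with a missing value were dropped, and 41097 carried 1 gene symbol. Signals were multiplied so that the 2% trimmed mean was 114 on every array, and 5% of it (5.69) was added before log2. Probe sets reaching 40% of it (45.5) on at least 2 arrays were kept, 1 per gene by highest mean, which gave 11450 genes. Detection calls were not used, so a dim value is a level with no test against background.

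Comparisons were fitted in limma 3.58.1 (R 4.3.3) with an intensity trend and Benjamini-Hochberg adjustment at 0.05. The replicate block is the control array that each sample description names. The pairing thus comes from the labels, and within it no replicate number was used. Residual degrees of freedom were 5 for single groups, 11 for inhibitor classes and 8 for controls. The scripts were tested on simulated data.

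Named were all members as needed, the 6 largest called rises and falls per comparison, and for context lists up to 3 called genes each. The members and lists were chosen with earlier results of these data known. Alternatives were the offset, the filter, deposited scaling, quantile normalization, the mean of probe sets, no trend, no replicate block, other inhibitor sets and each array left out. No protein sequence is printed, since no result turns on one.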

Additional observations from a re-analysis of the deposited data

Results flagged for a closer look

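Among the 6 untreated HT-1080 controls, each of the 34 members was checked for 1 array far from the rest, and 3 were found, where chance gives about 1 in 20. NCL had a scaled signal of 3390 in control 6, against 4141 to 4390 in the other controls. RRP12 had 456.5 in the same array, against 548.5 to 607.3. Control 6 is the control of GS replicate 2, of all arrays of GS with Rot or AA, and of all parental TM arrays. HEATR1 had 787.1 in control 4, against 910.3 to 956.2, and control 4 is the control of 2DG replicate 2 and of 2DG with Rot or AA.

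For 2 members, on the probe set used for each, an effect differed between settings by the limma test of the difference itself. MRTO4 responded to inhibitors under 2DG more than under TM by 1.34 on the log2 scale (limma adjusted p = 0.0217). Its other probe set gave 0.58 and did not pass. The difference lost its call by the mean of probe sets, with no intensity trend, and without 2DG replicate 2 or the array of TM with AA. Its 2DG side included the biguanides, which were not given with TM. NOP16 responded to 2DG in HT-1080 rho0 more than in the parental line by 1.07, which rests on 1 treated rho0 array and its control. That control was itself below every parental HT-1080 control for NOP16. The choice of probe set matters for NOLC1. Another of its probe sets passed both tests, at 0.99 for 2DG less TM and 1.17 for rho0 less parental. The one used gave 0.52 and 0.18 and did not pass.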

How the results depend on the processing

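Counts are called members of 34. The majority direction turned in 4 cases under other processing. On the deposited scale, inhibitors with 2DG gave 9 (2 rose, 7 fell) and VST with GS gave 2, both of which fell. The line controls with quantile normalization gave 15 (9 higher, 6 lower in HT-1080), and inhibitors with GS by the mean of probe sets gave 7 (4 rose, 3 fell). Single members that turned sign, none past the threshold, were FBL at -0.0903 (deposited scale) and -0.0970 (quantile), and, with quantile normalization, NHP2 at -0.0113 and NPM1 at -0.000192 for inhibitors with 2DG and NPM1 at -0.0736 for VST with GS. The count for rho0 under 2DG was 0 with an offset of 1%, no filter, the deposited scale, quantile normalization or no trend, and 2 with no replicate block. For 2DG alone it was 0 on the deposited scale, by the mean of probe sets, with no trend and with no replicate block. VST with GS gave 5 with the stricter filter or the mean of probe sets and 1 with quantile normalization. The rho0 controls gave 10 on the deposited scale and 1 with no trend, inhibitors with 2DG gave 8 with quantile normalization, the difference between 2DG and TM gave 0 by the mean of probe sets or with no trend, and starved HT-29 gave 7 with no trend. With no replicate block, inhibitors with 2DG gave 18 and starved HT-29 gave 9.

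With each array left out in turn, counts ran from 0 to 0 for 2DG, for GS in HT-1080, for inhibitors with TM and for both rho0 responses. They ran from 7 to 18 for starved HT-29, 9 to 14 for inhibitors with 2DG, 0 to 6 with GS, 0 to 3 for 2DG less TM, 0 to 2 for VST with GS, 0 to 3 for the rho0 controls, 12 to 18 for the line controls, and 0 to 4 for the difference in GS between lines. The direction turned without GS with Rot and floating cells (3, of which 2 rose and 1 fell) and without HT-29 control 1 (13, of which 7 were higher and 6 lower). Leaving out the only TM, GS with VST, rho0 2DG or rho0 GS array, or a rho0 control of those, left no estimate. Over processing alternatives, 418 values of called members kept direction and side of the threshold, 80 lost the call and 5 turned. The cause of these changes was not tested. The number of arrays limits precision.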
